A study of Mus musculus with 104 samples.

Results

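The semaphorins, ephrins and Slits are the classical guidance ligands of growing axons, and the plexins, neuropilins, Eph receptors and Robos are the receptors that read them. The genes described here were chosen by symbol alone: Sema3 to Sema7, Plxna to Plxnd, Nrp1 and Nrp2, Epha and Ephb with a number, Efna and Efnb with a number, Robo1 to Robo4 and Slit1 to Slit3. For a gene with several probe sets of its own, the brightest on average stood for it, and probe sets that name more than 1 gene were left out. The rule found 59 genes of the 18193 measured: 20 semaphorins, 9 plexins, 2 neuropilins, 3 Slits, 4 Robos, 5 ephrin-As, 9 EphA receptors, 3 ephrin-Bs and 4 EphB receptors.

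The study hybridised total RNA to Affymetrix arrays, 2 per region, from punches of the preoptic area with the basal forebrain (POA/BF) and from 51 further regions: 48 of the brain and spinal cord, plus pineal gland, pituitary and retina. The mice were Balb/c males of 7 to 8 weeks, housed in 12 h of light and 12 h of dark before sampling under that cycle or in constant darkness, and the labels do not say which array came from which. For an array, punches of a region collected at intervals of 4 h across 24 h were pooled, so no array bears on time of day, and POA/BF was punched from slices 0.5 mm thick. The 2 samples of a region are described as independent but no animals are named, and p-values therefore measure only the spread between arrays, which may be technical.

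In development, class 3 semaphorins are secreted and act through neuropilins that recruit plexins, while most other semaphorins sit on the membrane and bind plexins directly. Ephrin-As are held to the membrane by a lipid anchor and mainly bind EphA receptors, ephrin-Bs span it and mainly bind EphB receptors and EphA4, and Slits are secreted repellents read by Robos. In the adult brain, members of these families remain expressed and are known for roles in synapses, dendritic spines, myelin and blood vessels.

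Promoter sequences are shown for 4 genes whose levels set the hippocampus apart below: the receptors Epha4, Epha5 and Epha7, which were high in its fields, and the ligand Efna5, which was low there. They are RefSeq sequences of build GRCm38.p6, around a start site that its promoter table lists, written 5′ to 3′ in the direction of the gene. For Epha5 this window lies inside the gene's annotated span, which begins upstream of it at base 84417818. Epha4 lies at chr1:77515039-77515338 on the minus strand, Epha5 at chr5:84417333-84417632 on the minus strand, Epha7 at chr4:28812881-28813180 on the plus strand and Efna5 at chr17:62881268-62881567 on the minus strand. Capitals mark the GC box, GGGCGG or its reverse complement CCGCCC.
Epha4: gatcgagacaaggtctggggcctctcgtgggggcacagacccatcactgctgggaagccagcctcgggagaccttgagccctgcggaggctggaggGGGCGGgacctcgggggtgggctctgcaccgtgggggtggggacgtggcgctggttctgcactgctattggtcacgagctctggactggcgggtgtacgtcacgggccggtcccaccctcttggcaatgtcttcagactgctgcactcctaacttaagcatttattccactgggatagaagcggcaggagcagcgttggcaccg
Epha5: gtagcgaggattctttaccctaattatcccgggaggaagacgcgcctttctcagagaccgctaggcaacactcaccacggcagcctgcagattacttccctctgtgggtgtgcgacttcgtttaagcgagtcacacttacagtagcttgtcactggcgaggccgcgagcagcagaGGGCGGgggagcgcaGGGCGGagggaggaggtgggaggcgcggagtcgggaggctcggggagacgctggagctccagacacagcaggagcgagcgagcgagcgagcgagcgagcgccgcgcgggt
Epha7: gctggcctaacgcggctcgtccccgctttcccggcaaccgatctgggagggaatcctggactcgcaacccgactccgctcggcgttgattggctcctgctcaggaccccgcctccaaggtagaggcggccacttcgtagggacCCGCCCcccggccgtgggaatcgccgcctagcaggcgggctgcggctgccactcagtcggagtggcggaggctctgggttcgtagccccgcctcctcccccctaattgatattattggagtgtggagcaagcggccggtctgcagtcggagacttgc
Efna5: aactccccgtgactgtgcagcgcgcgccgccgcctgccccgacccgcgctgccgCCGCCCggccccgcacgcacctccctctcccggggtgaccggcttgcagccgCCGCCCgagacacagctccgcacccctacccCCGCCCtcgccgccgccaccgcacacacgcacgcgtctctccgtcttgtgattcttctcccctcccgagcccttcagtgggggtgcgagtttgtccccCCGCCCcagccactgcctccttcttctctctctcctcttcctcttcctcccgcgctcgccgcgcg
Efna5 held 4 GC boxes, Epha5 held 2, and Epha4 and Epha7 held 1 each. A promoter was found by symbol for 52 of the 59 genes, and 39 of these, or 75.0%, held at least 1 GC box on either strand, against 35.9% of 27025 promoters of the same length. Promoters of the 52 genes had a median of 20.5 CpG dinucleotides, against 7.0 over all promoters. The TATA motif TATAAA was in 2 of the 52, or 3.85%, against 14.2% of all. These matches describe the letters in the window, which the 4 genes share whether they were high or low in the hippocampus.

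Values are log2 signals, on which 1 unit is a 2-fold difference, and regional values are means ± SD of 2 arrays. The median over all genes and arrays was 7.39, array medians lay between 7.33 and 7.46, and across genes the arrays within a region had a Pearson r of 0.972 to 0.998. Of 24 marker genes tested against their labelled region, 10 had their highest mean there and 21 were among the top 3 regions. Pmch and Hcrt, hormone precursors of the lateral hypothalamus, ranked 14 and 13 in the arrays with that label and were highest in the dorsomedial hypothalamic nucleus. The retina arrays stood apart: their lists of meningeal (11.02), endothelial (10.83) and microglial (10.27) markers were the highest of all 52 regions, and the list of anterior pituitary markers (12.61) was second to the pituitary.

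Most of these genes differed among regions. A gene was called when the limma F test gave an adjusted p under 0.05 and its highest and lowest region means differed by at least 2-fold. Of the 59 genes, 50 (84.7%) were called, where 60.3% of all genes were. Without the retina and the arrays labelled lateral hypothalamus 48 were called, and the share of all genes in that fit is not given here. In the fit with all regions, a 4-fold range was reached by 39 of the 59 genes, against 26.9% of all genes. The median range was 2.74 against 1.24 over all genes. The 59 genes were also brighter, with a median of 8.63 against 8.14, so their share was not compared at equal signal. Called genes had adjusted p between 1.4e-44 for Plxnd1 and 6.0e-09 for Ephb4. The 9 others (Efna2, Efna4, Epha1, Epha2, Plxnb1, Sema3d, Sema3f, Sema4b and Sema6c) also had an adjusted p under 0.05 but ranged over 0.69 to 0.96 only. Among the other probe sets of Epha1, Plxnb1, Sema3d and Sema3f, ranges of up to 2.25, 1.99, 2.68 and 3.28 were found. The means of Epha2, Robo2 and Sema3d stayed below the median of all values in every region, though another probe set of Sema3d reached 7.86 in the retina.

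**Figure D1:**
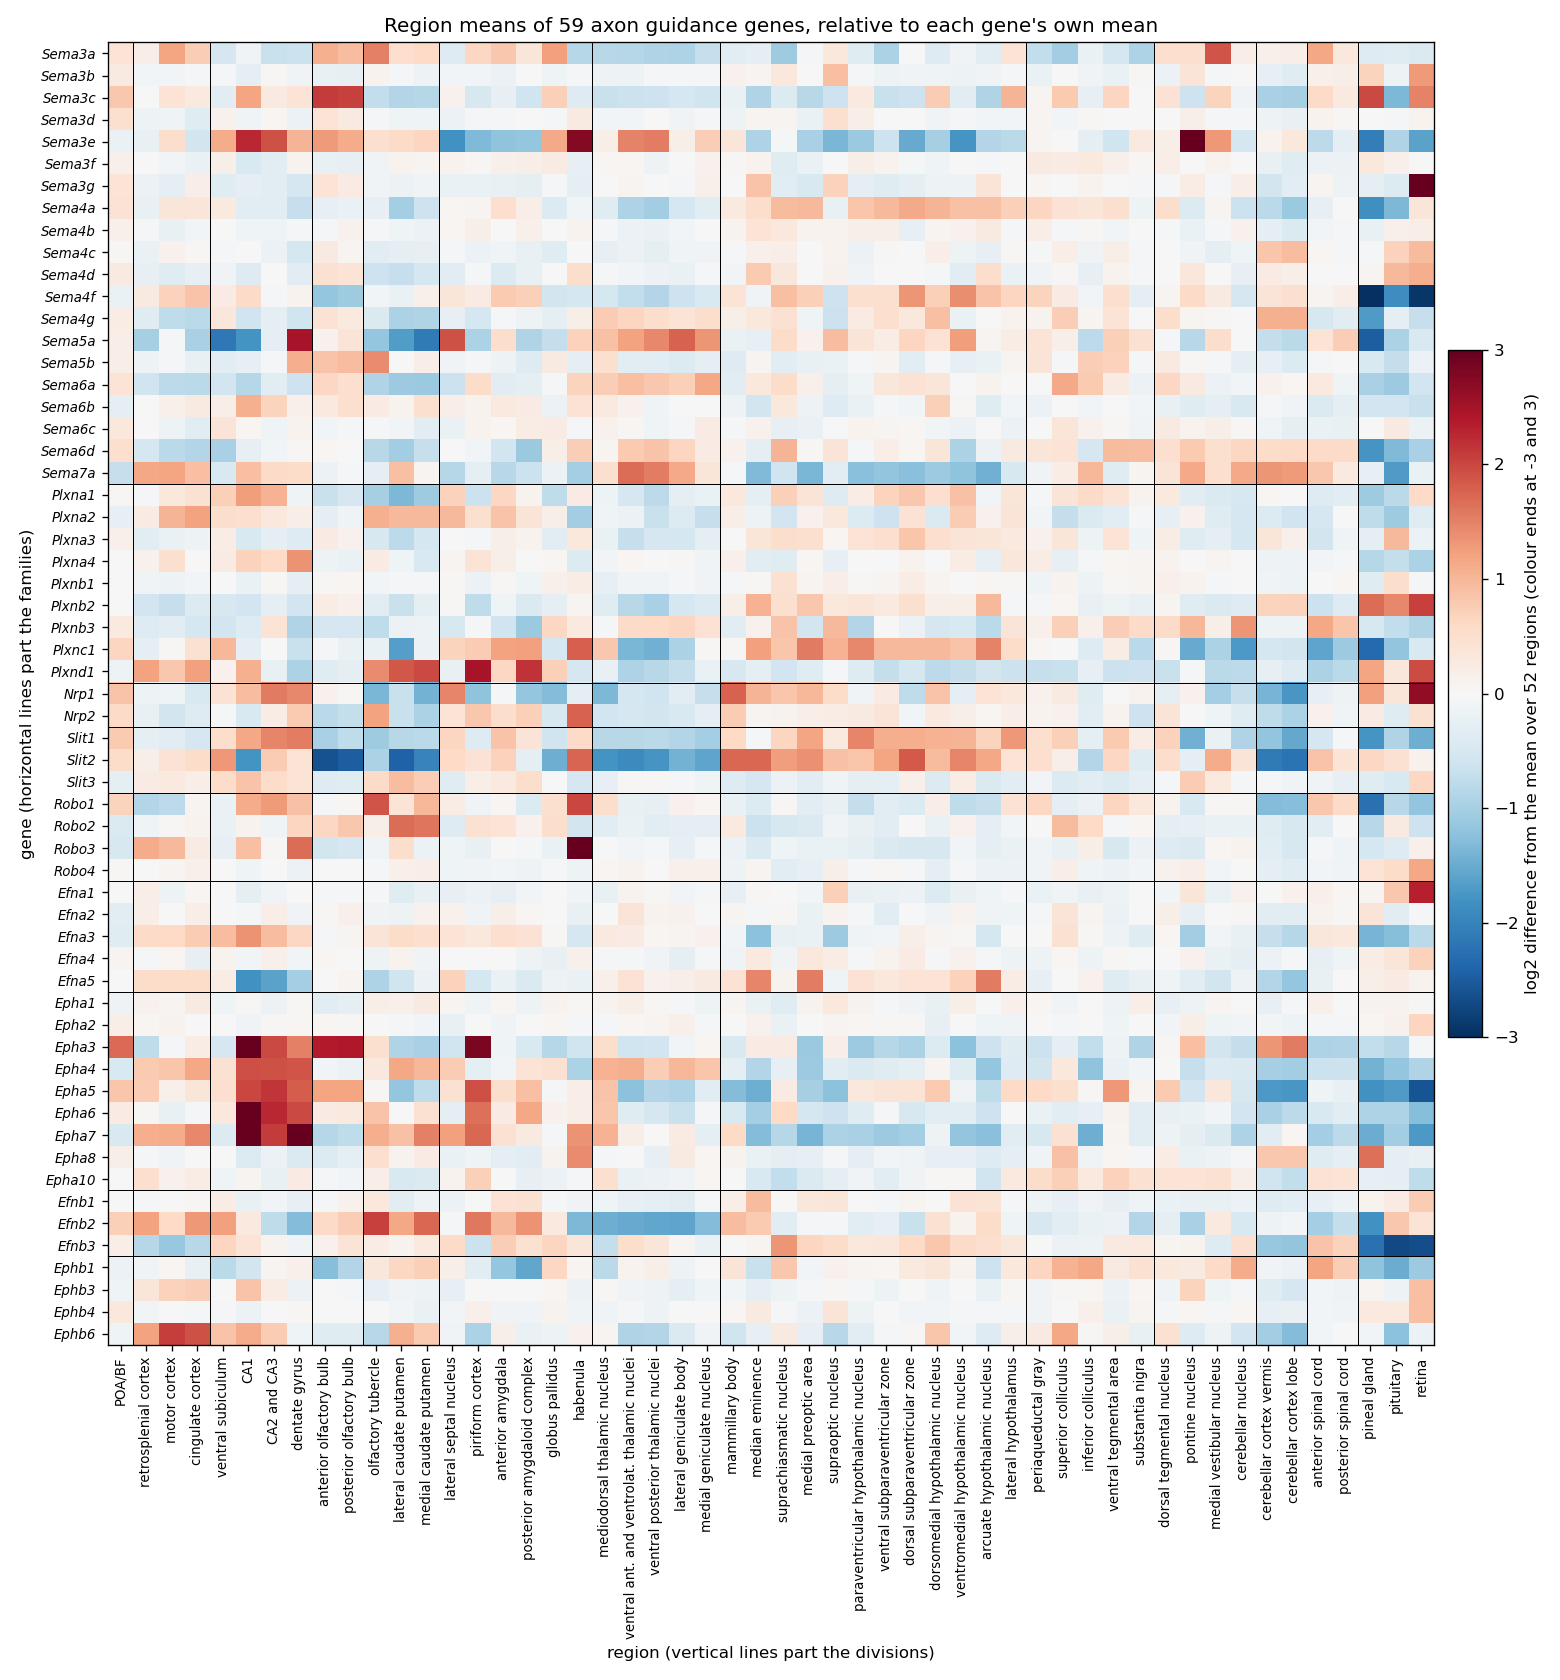
Heat map of the 59 genes (rows, grouped by family) in 52 regions (columns, grouped by division), each cell showing a region mean of 2 arrays minus the gene's mean over all regions, on the log2 scale. Epha3 to Epha7 are high in CA1, CA2 and CA3 and the dentate gyrus, where Efna5 is low, and Slit2 is high in the hypothalamus and low in the thalamus, cerebellar cortex, olfactory bulb and caudate putamen.

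Among the ephrin-A ligands, Efna5 and Efna3 had opposite patterns in the hippocampus. Efna5, a ligand known from topographic maps, read 7.72 and 7.42 on the arrays of CA1 and 7.82 and 7.75 on those of CA2 and CA3, the lowest regions of all 52. It was highest in the arcuate nucleus (10.94 ± 0.11), the medial preoptic area (10.92 ± 0.10) and the median eminence (10.86), whose arrays overlapped. Efna3, another ephrin-A, was instead highest in CA1, at 9.98 ± 0.03, clear of all other arrays. The ventral subiculum (9.56 ± 0.12) and CA2 and CA3 (9.55) followed, and the pineal gland was lowest at 7.24 ± 0.04. Efna1 was at 9.23 ± 0.11 in the retina and at 7.70 ± 0.35 in the pituitary, its next region, and reached the median of all values in 3 regions only. Efna2 and Efna4 varied by less than 2-fold.

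The EphA receptors, tyrosine kinases that bind the ephrin-As, differed among regions by at least 4-fold in 6 of 9 cases, as 26.9% of all genes did. Epha7 had the widest range of all 59, 5.12: its arrays read 11.55 and 11.49 in CA1 and 11.58 and 11.34 in the dentate gyrus, and both regions stood above CA2 and CA3 at 10.23. Its mean was 6.66 in the inferior colliculus, the lowest region of the brain, and 6.40 ± 0.04 in the retina. Epha5 was highest in CA2 and CA3 (11.40 and 11.64), CA1 (11.33 and 11.42) and the piriform cortex (11.17 and 11.43), which overlapped, and was at 7.63 in the cerebellar cortex lobe. Epha4, which also binds ephrin-Bs, was level across CA1 (11.12 ± 0.03), CA2 and CA3 (11.10 ± 0.08) and the dentate gyrus (11.08). These 3 fields lay above every other array of Epha4, of which the highest, 10.58, came from the ventral anterior and ventrolateral thalamic nuclei.

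Epha6 separated the hippocampal fields from each other. Its arrays read 10.38 and 10.44 in CA1, 9.47 and 9.51 in CA2 and CA3 and 9.04 and 9.38 in the dentate gyrus, so that the 3 fields did not overlap. Epha3 was the most restricted receptor of this group: it was at 9.05 ± 0.26 in CA1, 8.86 ± 0.16 in the piriform cortex and 8.43 in the posterior olfactory bulb, and reached 7.39, that median, in only 8 of 52 regions. Epha8 had another pattern, with 9.48 and 9.51 in the pineal gland, 9.25 ± 0.24 in the habenula and 8.71 in the superior colliculus. Epha10, which is thought to lack kinase activity, ranged over 1.48, and Epha1 and Epha2 varied by less than 2-fold. Another probe set of Epha1 ranged over 2.25 and was highest in the retina at 8.47 (r = 0.13 with the first). The pattern of Epha1 is therefore uncertain.

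**Figure D2:**
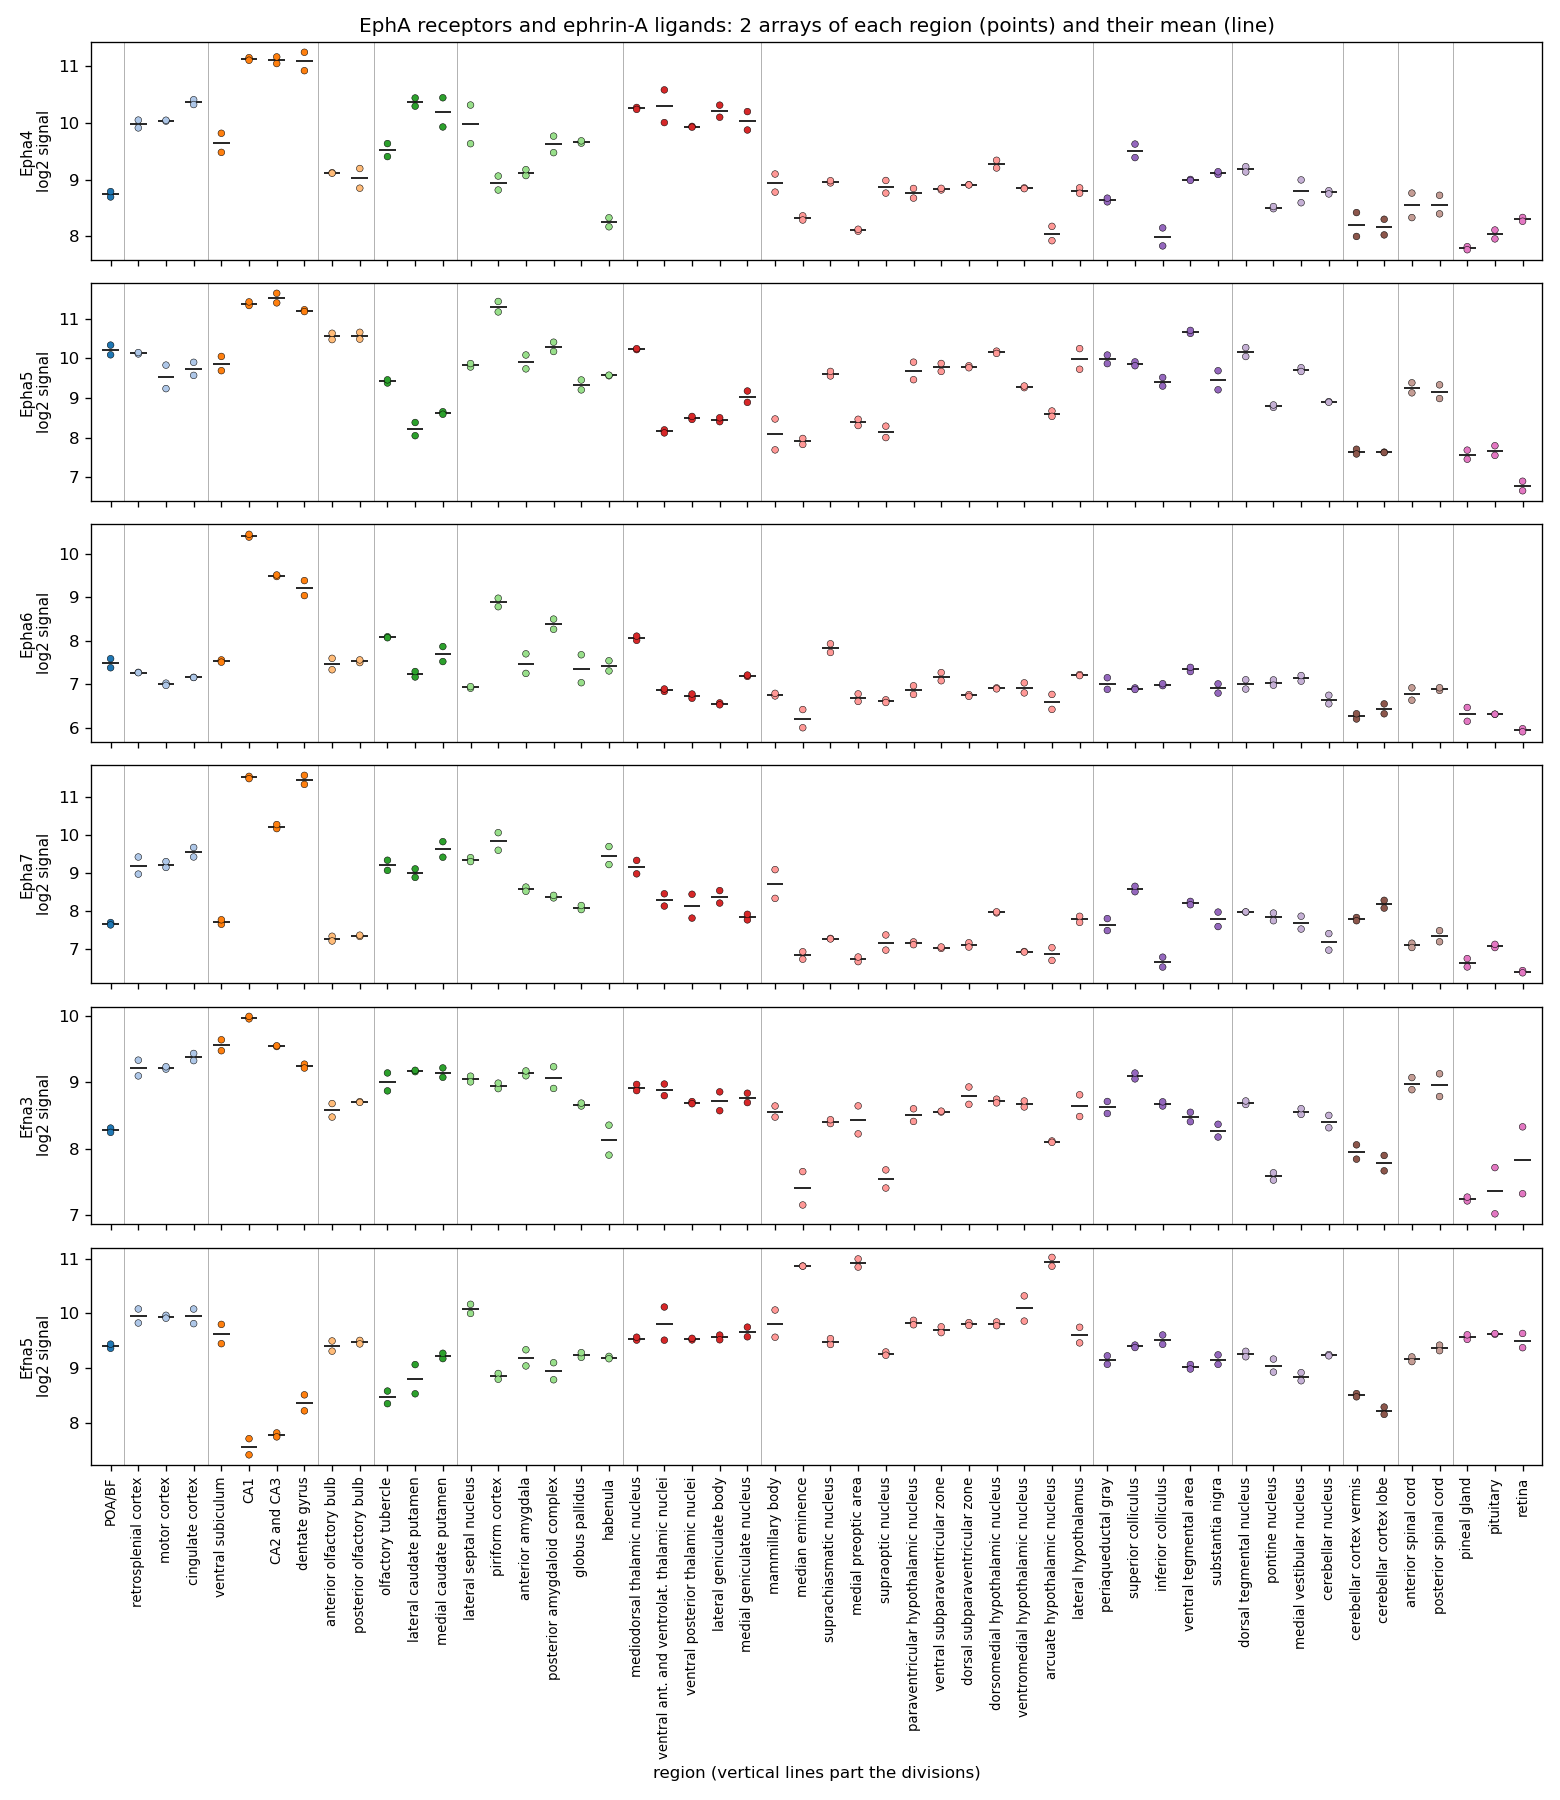
Log2 signal of 4 EphA receptors and 2 ephrin-A ligands in 52 regions, with each array as a point, the mean of 2 arrays as a line and colours for the divisions. The 6 arrays of CA1, CA2 and CA3 and the dentate gyrus lie above all others for Epha4, while those of CA1 and of CA2 and CA3 are the lowest for Efna5.

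Of the ephrin-Bs, Efnb2 and Efnb3 were regional in different places. Efnb2, which also marks arteries, was at 11.33 ± 0.13 in the olfactory tubercle and 11.02 ± 0.00 in the medial caudate putamen. It was at 7.71 in the lateral geniculate body, the lowest region of the brain. Efnb3, a midline barrier to spinal axons in development, was highest in the suprachiasmatic nucleus at 11.14 and 11.41, ahead of the anterior spinal cord (10.80 ± 0.05). It was at 8.77 in the cerebellar cortex lobe and at 7.23 ± 0.04 in the pituitary. Among the EphB receptors, Ephb6, which lacks kinase activity, was highest in the motor (9.99 ± 0.08) and cingulate cortex (9.83 ± 0.04). Ephb1 was highest in the anterior spinal cord (10.54 ± 0.18) and inferior colliculus (10.50 ± 0.15), whose arrays overlapped. Ephb3, Ephb4 and Efnb1 ranged over 1.17 to 1.42.

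Among the secreted class 3 semaphorins, 5 of 7 differed among regions by at least 2-fold, as 60.3% of all genes did. Sema3d and Sema3f did not reach a 2-fold range with their brightest probe sets. Other probe sets of both ranged over more than 2-fold, as given above, so the patterns of Sema3d and Sema3f are uncertain. Sema3e, which binds plexin D1 without a neuropilin, read 11.32 and 11.51 in the pontine nucleus, clear of the habenula at 11.23 and 11.11, and was at 6.62 in the lateral septal nucleus. Sema3c was highest in the anterior (10.73 ± 0.07) and posterior olfactory bulb (10.69 ± 0.04) and in the pineal gland (10.60). Sema3a, the first collapsing factor described, was highest in the medial vestibular nucleus at 10.70 ± 0.14 and lowest in the suprachiasmatic nucleus at 7.75 ± 0.02. Sema3g was at 10.63 ± 0.26 in the retina and at most 8.04 ± 0.30 elsewhere. Its level followed the endothelial list over the 49 regions of brain and spinal cord (r = 0.73), and that list was highest in the retina arrays; the part of vessels in its level was not tested. Here and below, such correlations are descriptions over region means that share their arrays.

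Membrane semaphorins marked other places. Sema5a, a large transmembrane semaphorin, divided the hippocampus: it read 11.29 and 11.34 in the dentate gyrus, the highest of all regions, but 6.78 and 7.32 in CA1 and 6.70 ± 0.15 in the ventral subiculum, the lowest region of the brain. The lateral septal nucleus (10.76 ± 0.19) and the lateral geniculate body (10.61) came next. Sema7a, which is lipid-anchored, was highest in the ventral anterior and ventrolateral (11.29 ± 0.10) and the ventral posterior thalamic nuclei (11.16 ± 0.02) and was at 8.17 in the arcuate nucleus. Sema4f was highest in the ventromedial hypothalamic nucleus (10.33 ± 0.14) and Sema4a in the dorsal subparaventricular zone (10.64 ± 0.00), and both were lowest in the pineal gland, at 5.81 ± 0.20 and 7.68 ± 0.11. Sema4g was highest in the cerebellar cortex lobe (10.52 ± 0.01) and vermis (10.51 ± 0.14). Sema6d was at 11.69 ± 0.01 in the suprachiasmatic nucleus, 11.62 ± 0.03 in the ventral tegmental area and 11.58 in the substantia nigra, and Sema5b at 8.94 ± 0.23 in the olfactory tubercle. Sema6a was highest in the medial geniculate nucleus (9.41 ± 0.18), though its 2 other probe sets followed it only at r = 0.61 and 0.42 and were highest in the supraoptic nucleus. Sema4d, the ligand of plexin B1, had other probe sets at r = 0.42 and 0.02, so its pattern is uncertain. The remaining called semaphorins, Sema3b, Sema4c and Sema6b, ranged over 1.48 to 1.74.

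Receptors of the semaphorins had their own patterns. Plxnd1 was highest in the piriform cortex (10.13 ± 0.15) and posterior amygdaloid complex (9.82 ± 0.26) and lowest in the dentate gyrus (6.70 ± 0.09). Plxnc1, a receptor of Sema7a, was highest in the habenula (11.21 ± 0.10) and the medial preoptic area (11.13 and 10.86), whose arrays did not overlap. Plxna1 was highest in CA1 (9.88 ± 0.03) and lowest in the lateral caudate putamen (7.29 ± 0.00), Plxna4 was highest in the dentate gyrus (10.51 ± 0.05), and Plxna2 was highest in the cingulate cortex, where its arrays were wide apart at 11.38 and 10.31. Nrp1, the co-receptor for Sema3a, was at 10.84 ± 0.29 in the mammillary body, its highest region of the brain, and at 12.19 and 11.30 in the retina. Nrp2 was highest in the habenula, at 11.01 and 10.98, clear of the olfactory tubercle at 10.34 and 10.49. Plxnb3, a plexin of oligodendrocytes, was highest in the cerebellar nucleus (10.65 ± 0.08) and followed the oligodendrocyte list at r = 0.91 over 49 regions, where Sema6d did so at 0.73 and Ephb1 at 0.60. The part of oligodendrocytes in these levels was not tested. Plxnb2 was highest in the retina (11.71 and 12.40) and Plxna3 ranged over 1.75.

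Robo1 and Robo3 had their highest means in the habenula. Robo3, a receptor that lets commissural axons cross the midline, read 10.12 and 10.40 in the habenula, 8.19 and 7.62 in the dentate gyrus and less everywhere else. A second probe set of Robo3 was dim (mean 5.80) and did not follow it (r = 0.10), so the peak rests on 1 probe set. Robo1 was also highest in the habenula, at 10.36 and 9.90, and level with the olfactory tubercle at 9.96 and 10.06. Robo2 was highest in the lateral (7.07 ± 0.06) and medial caudate putamen (7.01 ± 0.89). Its region means were below the median of all values throughout, though its highest striatal array read 7.65. Robo4, a receptor of endothelial cells, varied by 0.55 within the brain and spinal cord and was at 8.48 ± 0.09 in the retina. Robo3 and Robo4 lie 2.02 kb apart on chromosome 9, and their region means correlated at -0.07.

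Slit2 ranged from 10.83 and 10.92 in the dorsal subparaventricular zone to 6.54 and 6.27 in the anterior olfactory bulb. Within the hippocampus it was at 7.24 ± 0.21 in CA1 against 9.79 ± 0.06 in CA2 and CA3, 9.43 ± 0.06 in the dentate gyrus and 10.33 ± 0.08 in the ventral subiculum. Slit1 was highest in the dentate gyrus (10.52 ± 0.21), the paraventricular nucleus (10.44 ± 0.11) and CA2 and CA3 (10.43), with overlapping arrays. The region means of Slit1 and Slit2 correlated at 0.68, although CA1 held 10.13 ± 0.21 of Slit1. Slit3 ranged over only 1.43 and was highest in the lateral caudate putamen at 8.59 ± 0.13.

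**Figure D3:**
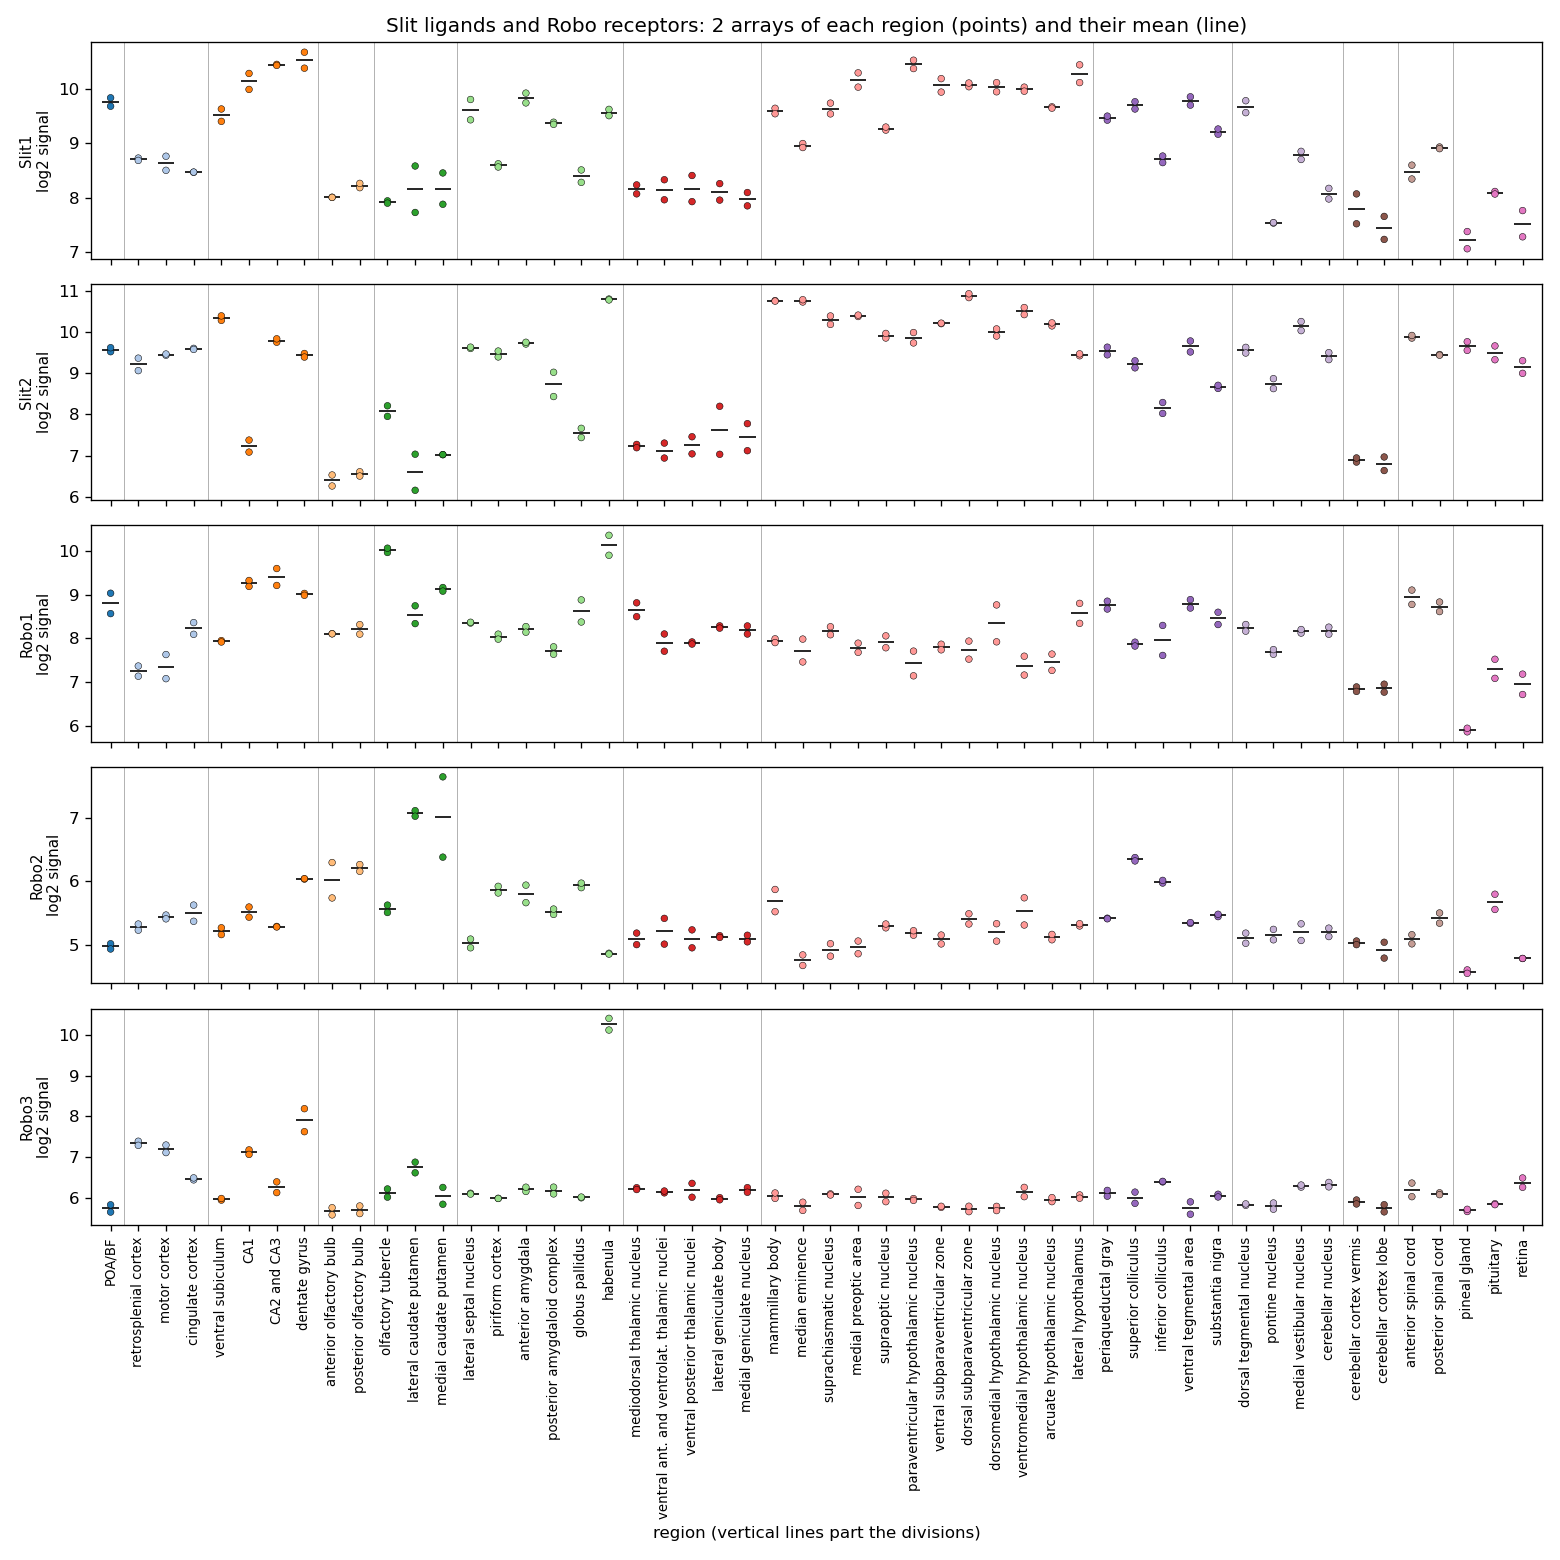
Log2 signal of Slit1, Slit2, Robo1, Robo2 and Robo3 in 52 regions, with each array as a point, the mean of 2 arrays as a line and colours for the divisions. Robo3 peaks in the habenula at 10.12 and 10.40, and Slit2 is low in the olfactory bulb, CA1, caudate putamen, thalamus and cerebellar cortex.

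The regions were then grouped into anatomical divisions, and each was compared with the other regions of the brain and spinal cord, leaving out pituitary, pineal gland and retina. POA/BF was compared with all 51 others. A gene was called at a limma adjusted p under 0.05 and at least 2-fold, and differences are log2 ± SE. In bulk tissue, fewer cells of a type and less RNA per cell cannot be told apart. The comparisons share most of their arrays, so their calls are not independent. The SE reflects the spread between arrays of a region. Where a call was lost with the 49 or 52 region means as the samples, which measures against the spread between regions, this is given beside it.

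In POA/BF, only Epha3 was called among the 59 genes, where 1.64% of all genes were called (1.53% higher and 0.115% lower). Its arrays read 8.04 and 7.42, against a mean of 6.00 and a range of 4.79 to 9.23 over the arrays elsewhere, and POA/BF ranked sixth. The difference was 1.73 ± 0.15 with an adjusted p of 2.23e-14. The lower mean is below the median of all values, which makes the fold uncertain. The mean of its 4 probe sets gave 0.87, short of 2-fold, and with region means as the samples the limma adjusted p was 1.0, in a fit where POA/BF is a single sample and 1 of all 18193 genes was called, so that loss says little about Epha3. Without POA/BF replicate 2, which leaves POA/BF a single array, the count rose, and the share of all genes in that fit is not given here. The median difference of the 59 genes was 0.15, against -0.01 for all genes. Of 10 meningeal markers, 9 were higher in POA/BF and 0 lower (list level 10.23, against 6.86 to 10.29 in the other regions of brain and spinal cord), and 2 of 10 astrocyte, 1 of 10 microglial, 1 of 11 endothelial and 1 of 6 choroid plexus markers were higher. Their part in the level of Epha3 was not tested.

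The isocortex (motor, cingulate and retrosplenial cortex) was high in Ephb6 and low in Efnb3. With 2.21% of all genes called (1.48% higher and 0.726% lower), 5 of the 59 genes were called higher and 1 lower. Ephb6 arrays lay between 9.08 and 10.04 there and between 6.45 and 9.23 elsewhere, a difference of 1.82 ± 0.07 (adjusted p = 2.36e-31). Efnb3 was lower, with arrays between 8.78 and 9.24 against a mean of 10.17 elsewhere (-1.18 ± 0.05, adjusted p = 4.36e-28). Plxnd1 (1.22 ± 0.05), Epha7 (1.19 ± 0.08), Sema7a (1.11 ± 0.06) and Efnb2 (1.09 ± 0.06) were called higher as well. Ephb6 and Efnb3 kept their calls with region means as the samples (0.478% of all genes called), and the 4 others did not (limma adjusted p from 0.303 to 0.494). Over the means of their probe sets, Sema7a was at 0.89 and Efnb2 at 0.70. Of 10 astrocyte markers, 1 was lower in the isocortex (list level 10.65 to 11.12), and its part was not tested.

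The hippocampal formation (ventral subiculum, CA1, CA2 and CA3, dentate gyrus) was high in 5 EphA receptors and low in Efna5. Of the 59 genes, 8 were called higher and 1 lower, where 2.65% of all genes were called (1.76% higher and 0.885% lower). Epha7 was 4.61-fold higher (2.20 ± 0.07, adjusted p = 1.58e-37), Epha6 4.11-fold (2.04 ± 0.05, adjusted p = 1.86e-41), Epha5 3.08-fold (1.62 ± 0.06) and Epha4 3.03-fold (1.60 ± 0.06). Epha3 (1.59 ± 0.08), Sema3e (1.62 ± 0.09), Nrp1 (1.28 ± 0.08) and Slit1 (1.18 ± 0.07) were also called higher, and Efna5 was lower (-1.14 ± 0.05, adjusted p = 1.85e-27). The means elsewhere of Epha3 and Epha6, 5.94 and 7.12, lie below the median of all values.

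The ventral subiculum did not share this pattern for every gene: Epha7 arrays there went down to 7.65, Epha3 arrays to 5.45 and Efna5 arrays up to 9.80, each on the other side of the mean elsewhere. With region means as the samples (1.43% of all genes called), Epha4, Epha5, Epha6, Epha7, Nrp1 and Efna5 kept their calls, and Nrp1 lost its own with the hybridisation controls as a covariate (limma adjusted p = 0.0516). Epha3, Sema3e and Slit1 did not (limma adjusted p = 0.0618, 0.0664 and 0.0877). Over the mean of its 2 probe sets, the difference of Efna5 was -0.61, and its second probe set was dim (mean 6.20, r = 0.49 with the first). Of 6 choroid plexus markers, 2 were higher in the hippocampal formation, with a list level of 7.55 to 10.32 over its 4 regions, and 1 of 10 astrocyte markers was lower (10.59 to 11.02). Their part was not tested.

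The striatum (lateral and medial caudate putamen, olfactory tubercle) differed in 12 of the 59 genes, 6 higher and 6 lower, where 4.46% of all genes were called (2.23% higher and 2.23% lower). Plxnd1 arrays lay between 9.05 and 9.88, against a mean of 7.46 elsewhere, a 3.87-fold difference (1.95 ± 0.05, adjusted p = 2.42e-42). Efnb2 was 3.34-fold higher (1.74 ± 0.06), and Robo2 (1.20 ± 0.07), Epha7 (1.14 ± 0.08), Robo1 (1.07 ± 0.09) and Plxna2 (1.02 ± 0.09) were called higher. Both Robo2 means were below the median of all values, and its difference was 0.99 without replicate 1 of the medial caudate putamen.

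Of the ligands, 2 Slits and 2 semaphorins were called lower in the striatum: Slit2 (-1.88 ± 0.08), Sema5a (-1.85 ± 0.11), Sema6a (-1.16 ± 0.06) and Slit1 (-1.05 ± 0.07), together with the receptors Plxna1 (-1.23 ± 0.05) and Nrp1 (-1.14 ± 0.09). Striatal means of Slit2 (7.24), Sema5a (7.19) and Sema6a (7.21) lie below the median of all values. With region means as the samples (3.15% of all genes called), Plxnd1, Efnb2, Robo2, Plxna2, Sema5a, Plxna1 and Sema6a kept their calls, while Epha7, Robo1, Slit1, Slit2 and Nrp1 did not (limma adjusted p from 0.0589 to 0.303). The hybridisation controls as a covariate ended the calls of Sema6a (-0.99) and Plxna2 (0.87). Over probe set means, 7 of the 59 genes were called, including a gene not called with the brightest probe sets. The calls of Nrp1 (-0.88), Plxna1 (-0.74), Slit1 (-0.72), Sema6a (-0.57), Plxna2 (0.97) and Robo1 (0.60) were lost. Slit1 was at -0.99 with each array centred on its median, and the lowest values with 1 array of the caudate putamen left out were -0.91 for Slit1 and 0.88 for Plxna2. Of 10 astrocyte markers, 2 were lower in the striatum (list level 10.42 to 11.06, against 10.44 to 12.16 in the other regions of brain and spinal cord), and 1 of 10 oligodendrocyte markers was lower (8.82 to 10.65). Their part was not tested.

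The thalamus was low in Efnb2 and Slit2 and high in Sema5a. In the 5 thalamic regions, 2 of the 59 genes were called higher and 3 lower, where 2.41% of all genes were called (1.32% higher and 1.09% lower). Efnb2 arrays lay between 7.54 and 8.13 there and between 7.83 and 11.42 elsewhere (-1.66 ± 0.05, adjusted p = 2.75e-40). Slit2 (-1.85 ± 0.07) and Slit1 (-1.07 ± 0.06) were lower, while Sema5a (1.39 ± 0.09) and Sema7a (1.11 ± 0.05) were higher. The thalamic mean of Slit2, 7.34, lies below the median of all values. Slit2, Efnb2 and Sema5a kept their calls with region means as the samples (1.54% of all genes called), and Sema5a lost its own with the hybridisation controls as a covariate (limma adjusted p = 0.0522). Sema7a and Slit1 did not (limma adjusted p = 0.0732 and 0.0813). Over the means of their probe sets, 2 of the 59 genes were called, including a gene not called with the brightest probe sets. Sema5a was at 0.84, Sema7a at 0.78, Efnb2 at -0.84 and Slit1 at -0.81, short of 2-fold. Of 10 oligodendrocyte markers, 8 were higher in the thalamus (list level 10.65 to 12.02, against 7.65 to 12.35 elsewhere), and their part was not tested.

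The hypothalamus, with 12 regions, was high in Slit1, Slit2 and Plxnc1 and low in Sema7a, Sema3e and Epha7. It had 3 genes called higher and 3 lower, where 1.7% of all genes were called (0.967% higher and 0.731% lower). Slit2 was 3.18-fold higher (1.67 ± 0.05), Plxnc1 2.32-fold (1.22 ± 0.04) and Slit1 2.04-fold (1.03 ± 0.04), each above the mean elsewhere in 12 of 12 regions. Sema7a (-1.34 ± 0.03, adjusted p = 6.69e-43) and Sema3e (-1.30 ± 0.06) were lower, again in 12 of 12 regions, as was Epha7 (-1.20 ± 0.04) in 11 of 12. All 6 kept their calls with region means as the samples (1.57% of all genes called), with limma adjusted p of at most 0.00566. Slit1 was just short of 2-fold with each array centred on its median (0.99), under quantile normalization (0.997) and without the retina and the arrays labelled lateral hypothalamus (0.99). Over the means of probe sets, 2 of the 59 genes were called: Slit1 was at 0.69, Plxnc1 at 0.92, Sema7a at -0.87 and Sema3e at -0.96. Of 6 anterior pituitary markers, 1 was higher in the hypothalamus, whose list level ran up to 9.65 in the median eminence, and its part was not tested.

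In the cerebellar cortex (vermis and lobe), most called genes of the set were low: 3 were higher and 10 lower, where 5.51% of all genes were called (2.78% higher and 2.73% lower). Epha5 arrays lay between 7.59 and 7.71 there and between 7.69 and 11.64 elsewhere (-1.94 ± 0.09, adjusted p = 1.23e-28). Slit2 had the largest difference (-2.24 ± 0.10), with a mean of 6.85 that lies below the median of all values. The other lower genes were Nrp1 (-1.54), Slit1 (-1.51), Robo1 (-1.43), Efnb3 (-1.37), Ephb6 (-1.26), Epha4 (-1.13), Sema4a (-1.07) and Efna5 (-1.06). Epha3 (1.47 ± 0.11), Sema7a (1.32 ± 0.07) and Sema4g (1.05 ± 0.06) were higher. The means of Robo1 (6.85) and Ephb6 (6.73) in the cerebellar cortex and of Epha3 elsewhere (6.01) also lie below that median. Only Efnb3, Epha5, Robo1 and Sema4g kept their calls with region means as the samples (3.52% of all genes called), and the 9 others had limma adjusted p from 0.0636 to 0.19. Sema4g was at 0.98 under quantile normalization and at 0.92 with the hybridisation controls as a covariate. Efna5 was at -0.99 with each array centred on its median, and over probe set means Robo1 was at -0.93, Sema4a at -0.89 and Efna5 at -0.60. Of 10 microglial markers, 4 were lower in the cerebellar cortex and 0 higher, with a list level of 7.98 in both regions against 8.34 to 9.95 elsewhere. Of 10 astrocyte markers 2 were higher (11.49 to 11.51), as was 1 of 6 choroid plexus markers (7.78 to 8.16), and the part of these cells was not tested.

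In the spinal cord, Plxnc1 (-1.48 ± 0.09, adjusted p = 2.04e-21) and Epha7 (-1.03 ± 0.09) were lower, and no gene of the set was called higher, where 2.52% of all genes were called (1.76% higher and 0.753% lower). Neither kept its call with region means as the samples (0.39% of all genes called, limma adjusted p = 0.314 and 0.69). The mean of Epha7 in the spinal cord, 7.22, lies below the median of all values. The count of 2 became 4 without posterior spinal cord replicate 1 and 1 without replicate 2, which lost Epha7 at -0.96, and was 4 without the arrays labelled lateral hypothalamus and the retina. For the fits without 1 replicate, the share of all genes is not given here. Of 10 oligodendrocyte markers, 9 were higher in the spinal cord (list level 12.21 to 12.35), of 10 astrocyte markers 3 were higher and 1 lower (11.87 to 12.00), and 1 of 6 choroid plexus markers was lower (7.13 to 7.34). Their part was not tested. In the midbrain, limma called 0 of the 59 genes, where 0.484% of all genes were called (0.341% higher and 0.143% lower). At any fold, 18 were higher and 17 lower there at an adjusted p under 0.05, where 30.3% of all genes were (16.7% higher and 13.6% lower), and 5 of 10 oligodendrocyte markers and 1 of 6 choroid plexus markers were called higher.

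**Figure D4:**
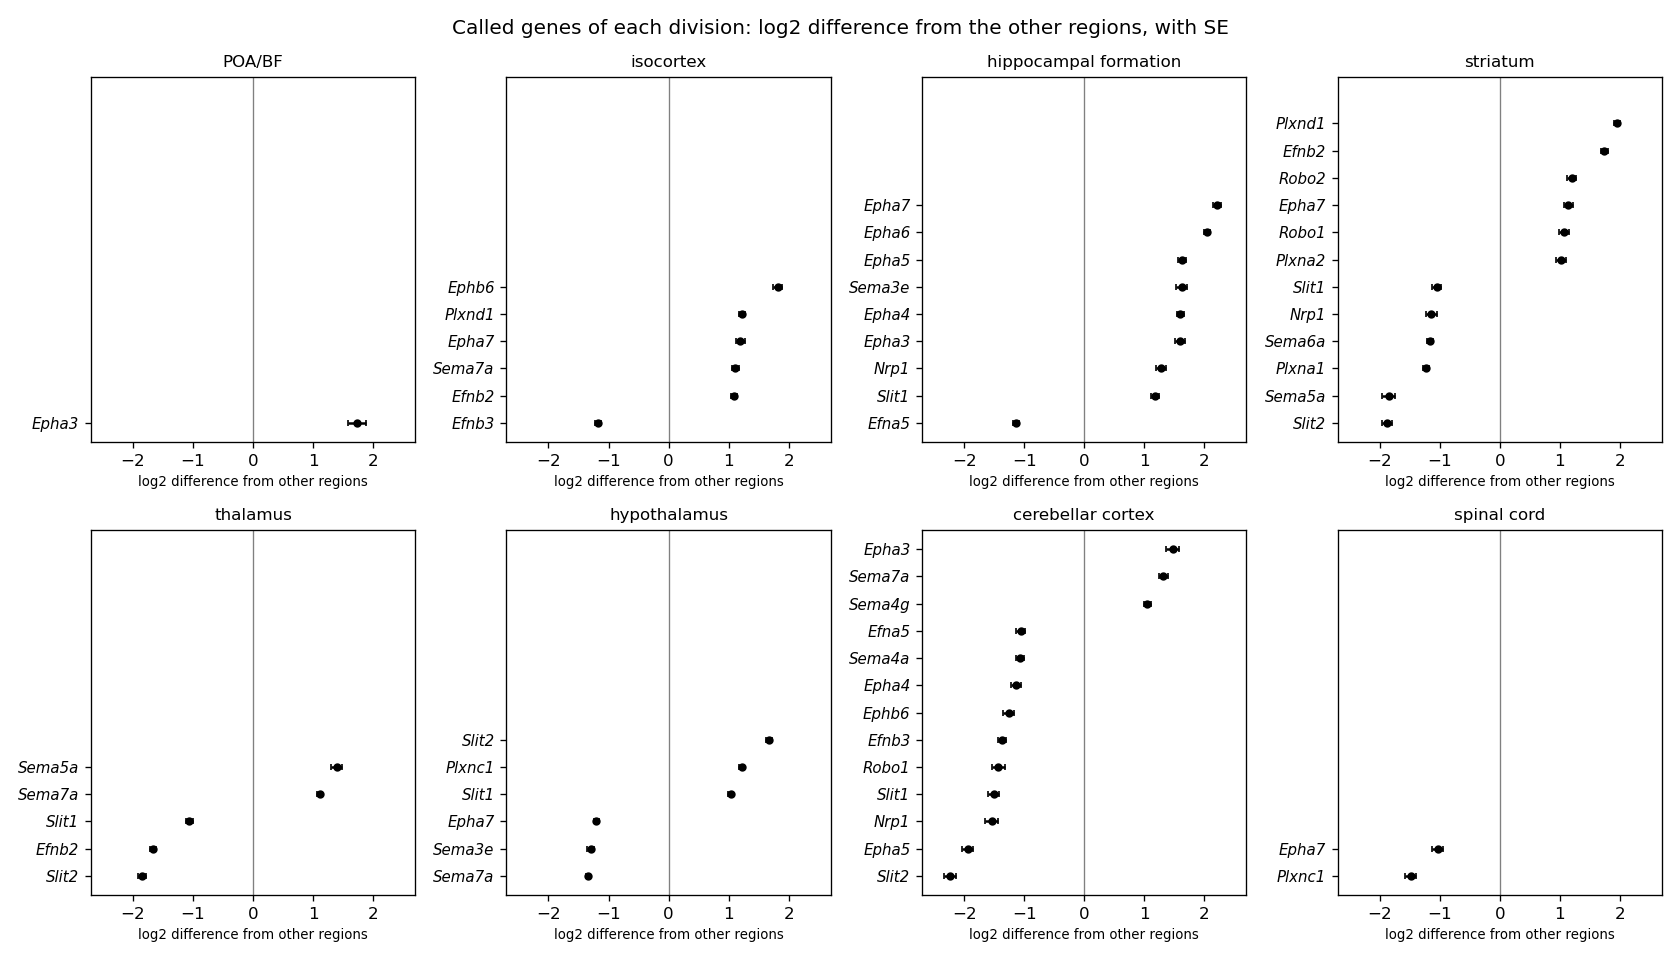
Log2 differences (points) with SE (bars) of the genes called in each division against the other regions. Each panel is a division, and genes right of the line at 0 are higher there. The hippocampal formation has 8 points to the right and 1 to the left, and the cerebellar cortex 3 and 10.

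Known ligand and receptor pairs did not share a single relation. For 39 listed pairs, correlations of region means over the 49 regions of brain and spinal cord had a median of -0.06, and for all 1711 pairs of the 59 genes it was 0.02. The lowest was Sema7a with its receptor Plxnc1, at r = -0.83, and this was also the lowest of all 1711 pairs. Sema7a was high and Plxnc1 low in the ventral thalamic nuclei, pontine nucleus and cerebellar nucleus, and the reverse held in the medial preoptic area, arcuate nucleus and habenula. Plxnc1 and the oligodendrocyte list correlated at -0.58 and Sema7a and that list at 0.48, and their part was not tested. Sema6a and Plxna2 followed at -0.77, with the reservation about the probe sets of Sema6a.

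Efna3 and Epha4 were the highest of the listed pairs, at 0.73, and at 0.66 without the hippocampal formation. Efna5 and Epha7 stood at -0.55, which became -0.30 without the hippocampal formation. Slit and Robo pairs were weak, from -0.40 for Slit2 with Robo2 to 0.38 for Slit3 with Robo2. Both extremes rest on Robo2, whose mean stayed below the median of all values in every region. Sema3e and Plxnd1 were at -0.02. Among receptors of the same family, Epha4 and Epha7 (0.76), Epha5 and Epha6 (0.75) and Epha6 and Epha7 (0.73) were the highest EphA pairs, and Plxna3 and Plxnb2 reached 0.78.

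**Figure D5:**
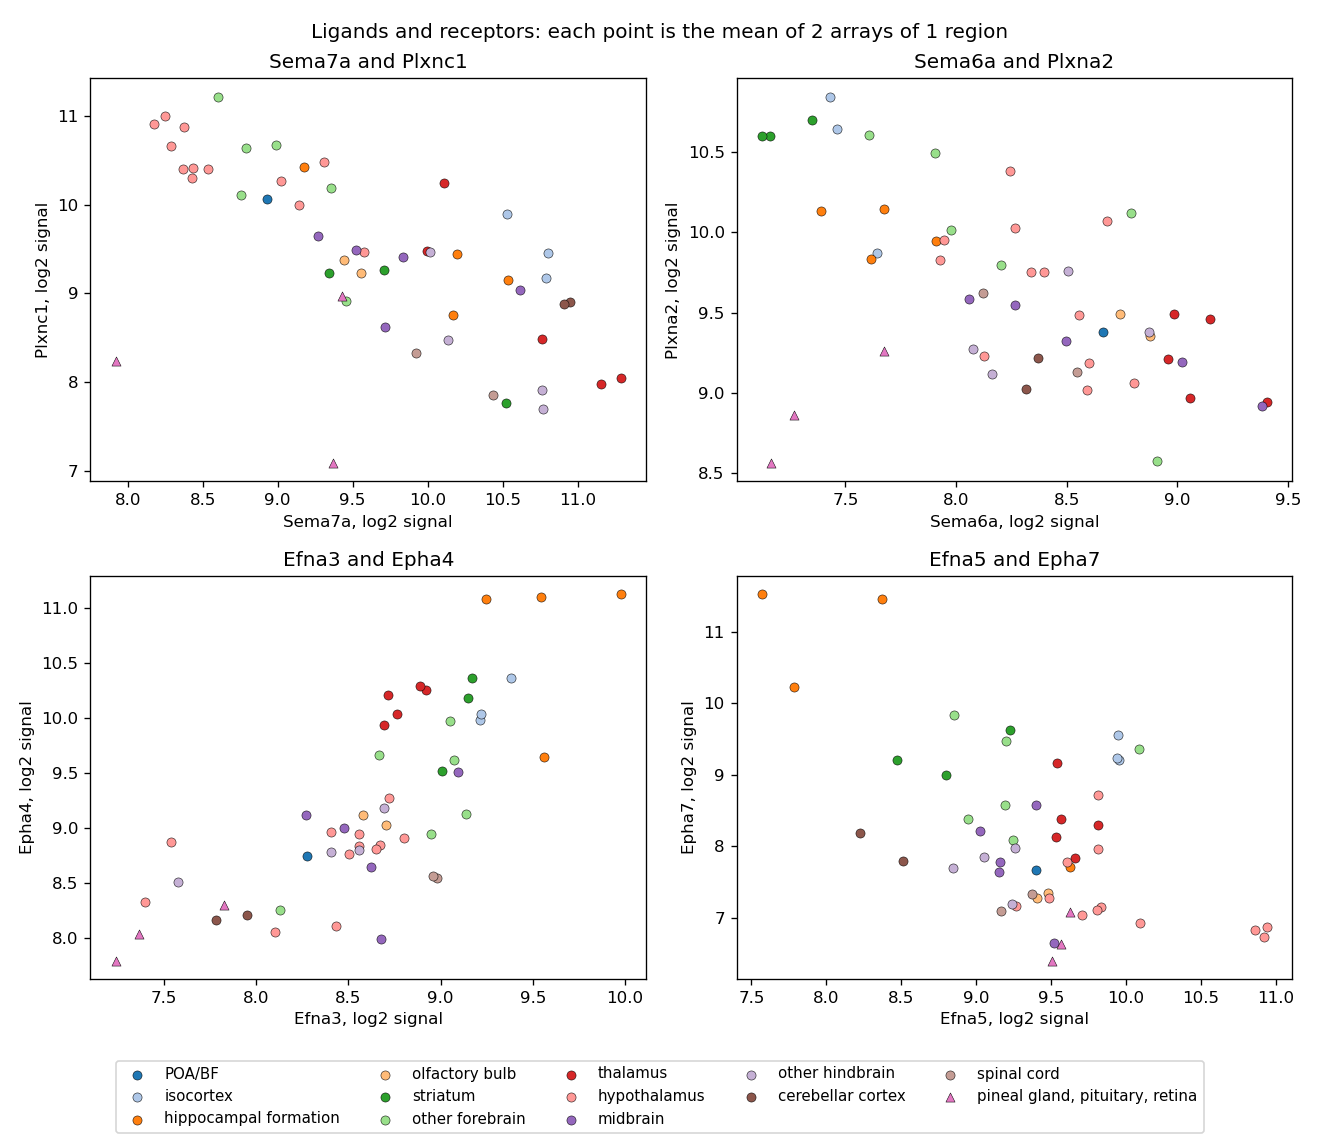
Region means of 4 ligands (x axis, log2 signal) against their receptors (y axis, log2 signal), with a point for each of the 52 regions coloured by division. Triangles are the pineal gland, pituitary and retina, which are not in the correlations of -0.83 for Sema7a and Plxnc1, -0.77 for Sema6a and Plxna2, 0.73 for Efna3 and Epha4 and -0.55 for Efna5 and Epha7.

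Of the region with the highest mean of each gene, the retina came first for 12 of the 59 genes (20.3%), where it did for 15.7% of all genes, and CA1 for 7 (11.9% against 3.77%). The habenula was highest for 4 (6.78% against 1.84%): Robo1, Robo3, Plxnc1 and Nrp2. Both arrays of the highest region lay above all other arrays for 29 of the 59 genes, where 36.2% of all genes did so.

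Other genes of these pathways were counted from lists. Of 17 netrin, DCC and RGM genes, 13 differed among regions by the same rule, by which 60.3% of all genes did, as did 35 of 38 measured intracellular effectors and 14 of 14 co-receptors and adhesion partners. Ngef, an exchange factor bound to EphA receptors, was higher in the striatum (2.75 ± 0.06) and isocortex (1.52 ± 0.06) and lower in the cerebellar cortex (-2.18 ± 0.07) and thalamus (-1.67 ± 0.05). Chn1, an effector of Epha4, was higher in the hippocampal formation (1.53 ± 0.05), isocortex (1.55 ± 0.05) and striatum (1.66 ± 0.05) and lower in the cerebellar cortex (-1.29 ± 0.07) and POA/BF (-1.03 ± 0.09). Its relative Chn2 was higher in the cerebellar cortex by 3.59 ± 0.14 and lower in the hippocampal formation (-1.59 ± 0.10). In the hippocampal formation, where 2.65% of all genes were called (1.76% higher and 0.885% lower), 3 of 38 effectors were called, 1 higher and 2 lower, and 2 of 17 netrin-related genes were higher: Dscaml1 (1.82 ± 0.08) and the netrin receptor Unc5a (1.42 ± 0.05). In the midbrain, Ntn1, the founding netrin, was higher by 1.15 ± 0.05, the single called gene of these 3 lists there. In the thalamus, the netrin relative Ntng1 was higher by 1.28 ± 0.04.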

How the data were processed

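The deposited values were log2 signals, 2 arrays for each of 52 regions, made by the authors with RMA per the submitters' processing notes, and were used as deposited. No RMA version is given in the sources used here. Of 45101 probe sets, 34945 had a single symbol, 932 several, 9160 none and 64 were controls. The single-symbol ones covered 18193 genes, each read from its brightest probe set, and 40 of the 59 genes had several probe sets.

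Region means and their contrasts were estimated with lmFit and eBayes of limma 3.58.1 (R 4.3.3, 52 residual degrees of freedom, prior 7.87). P values were two-sided and adjusted by Benjamini-Hochberg over all 18193 genes. A call needed an adjusted p under 0.05 and at least 2-fold. The scripts were tested on simulated data. The genes, lists and tests were chosen with earlier results of these data known. Regional values are given for genes with a range of at least 2, for called genes and for listed ligand and receptor pairs, and differences for all called genes. Replicate numbers did not pair arrays uniformly across regions. Control probe sets of the POA/BF arrays lie out of position, so POA/BF was left out of the hybridisation control covariate. Alternatives are array centring, quantile normalization, a dim gene filter, probe set means, no fold threshold, region means as samples, a replicate block and leaving out arrays.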

Additional observations from a re-analysis of the deposited data

How the results depend on the processing

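The count of genes that differ among regions moved nowhere by over 1.5 times, and no result changed direction under any alternative. Averaging all probe sets of a gene gave calls for 0 genes in POA/BF (1.34% of all genes), 7 in the striatum (3.47%), 2 in the thalamus (1.89%) and 2 in the hypothalamus (1.28%). The counts in the striatum and thalamus each include a gene not called with the brightest probe sets. Without the fold threshold they were 31 in POA/BF (27.6% of all genes), 42 in the isocortex (44.2%), 41 in the hippocampal formation (49.6%), 48 in the striatum (51.9%), 41 in the thalamus (52%), 46 in the hypothalamus (62.5%), 35 in the midbrain (30.3%), 48 in the cerebellar cortex (64.3%) and 37 in the spinal cord (43.1%). Without the retina and the arrays labelled lateral hypothalamus, the spinal cord had 4 (2.52% of all genes). With region means as the samples, calls were 0 in POA/BF (0.0055% of all genes), 2 in the isocortex (0.478%), 7 in the striatum (3.15%), 3 in the thalamus (1.54%), 4 in the cerebellar cortex (3.52%) and 0 in the spinal cord (0.39%). With the hybridisation controls as a covariate in addition, they were 2 in the isocortex (0.473%), 5 in the striatum (2.94%), 4 in the thalamus (1.51%), 5 in the cerebellar cortex (3.62%) and 0 in the spinal cord (0.396%). The thalamus lost Sema5a, Sema7a and Slit1 there, so its count includes genes not called in the fit on arrays. Leaving out 1 array at a time changed the count in POA/BF, where it can leave a single array, and gave 1 to 4 in the spinal cord. The shares of all genes in these fits are not given here. The cause of these shifts was not tested. A fit on region means has fewer samples and also measures against the spread between regions, and a missing fold threshold admits small differences.

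With the replicate number as a block, all 78 results kept their side of the threshold. Every region has an array of each number, so this block cannot change a difference or its direction, only its error. The numbers do not pair arrays uniformly: over 1326 pairs of regions, deviations of arrays with the same number had a median correlation of -0.0004. The correlations ran from -0.50 to 0.52 and were above 0.1 in 327 pairs, so arrays of some regions shared deviations. The number of arrays, 2 per region, limits the precision. The hybridisation control level, which ran from 9.29 to 11.21 over regions, correlated with Epha1 at 0.76 and Sema4d at -0.50.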
